A study of Homo sapiens with 12 samples.

Results

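The 37 genes of the human mitochondrial genome were followed in K562 cells treated with the USP7 inhibitor FT671. They were taken as every gene whose GENCODE symbol starts with MT-, which gave 13 mRNAs, 2 ribosomal RNAs (rRNAs) and 22 transfer RNAs (tRNAs) out of 60609 genes listed. All 37 lie on chrM of hg38. K562 is an established human leukemia cell line that grew out of a chronic myeloid leukemia, and FT671 is a small molecule that blocks the deubiquitinase USP7. RNA-seq libraries were made from 3 cultures given the solvent DMSO and 3 given 10 µM FT671, each for 48 h. The replicates are described as independent experiments in the study's text. The libraries came from total RNA depleted of rRNA and were sequenced from both ends, and the deposited values are read counts per gene. All 6 cultures are of the same unmodified line, so the groups differ by FT671 alone as far as the labels state, and the inhibitor's activity on USP7 cannot be read from these counts.

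The mitochondrial genome is a small circle that is read on both strands into long precursor RNAs. Most mRNAs and rRNAs in these precursors are flanked by tRNAs, and cutting out the tRNAs releases them. The mRNAs encode core subunits of complexes I, III, IV and V of oxidative phosphorylation, while the other subunits, and every protein that transcribes, cuts, stabilizes or degrades these RNAs, come from nuclear genes. Genes are called heavy-strand genes here if their RNA is copied from the heavy strand (28 genes, on the + strand of hg38) and light-strand genes if it is copied from the light strand (9 genes, on the - strand).

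MT-CYB and MT-CO3 fell most among the mitochondrial mRNAs and MT-CO1 rose. Their ends are shown because the mRNAs with the strongest falls share a feature there. The feature was chosen after the values had been seen, and MT-ND4, with a log2 fold change of −0.50, has it too. Each sequence gives the last 24 bases of the annotated mRNA in hg38, 5′ to 3′ on the + strand, with the bases of its last codon in capitals. As annotated, 6 of the 13 mRNAs end with only 1 or 2 bases of a stop codon. The rest of that codon is known to be supplied by polyadenylation. MT-ATP6 counts as complete here, though the last base of its TAA is also the first base of MT-CO3.
MT-CYB, chrM:15864-15887: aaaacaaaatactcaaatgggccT
MT-CO3, chrM:9967-9990: tctccatctattgatgagggtctT
MT-ND2, chrM:5488-5511: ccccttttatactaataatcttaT
MT-ND3, chrM:10381-10404: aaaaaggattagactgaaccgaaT
MT-ND1, chrM:4239-4262: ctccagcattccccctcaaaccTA
MT-ND4, chrM:12114-12137: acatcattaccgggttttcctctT
Of the 7 mRNAs with a complete last codon, 3 are shown for contrast, including MT-CO1, the mRNA that rose.
MT-CO1, chrM:7422-7445: gaacccgtatacataaaatctAGA
MT-CO2, chrM:8246-8269: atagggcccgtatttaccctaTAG
MT-ND5, chrM:14125-14148: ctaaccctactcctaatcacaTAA

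The counts totaled 4555220 to 14250500 per library, and 3 counts, taken as the smallest detectable level, correspond to 0.211 to 0.659 CPM (read counts scaled to a common library size). Without molecular identifiers, reads may be copies of the same molecule, so floors and intervals speak of counting error alone. All 10 erythroid and K562 markers on a fixed list were detected, with DMSO means between 14.2 and 563 CPM, and their summed level was 1421 to 1443 CPM in DMSO and 1130.3 to 1173 CPM after FT671. The sum hides opposite changes. At an adjusted p-value of 0.05 (edgeR, described below) 7 fell and 3 rose, against 26.5% lower and 23.6% higher among all genes tested. HBG1, among the 3, went from 36.8 ± 2.83 to 98.7 ± 3.93 CPM. Of 7 markers of other cell types, MS4A1 was at 0 in all libraries, CD3E, CD14 and ALB stayed below 1 CPM, and COL1A1, PECAM1 and EPCAM were present in both groups. Their summed level was 79.2 to 85.7 CPM in DMSO and 103 to 108 CPM after FT671, mostly from EPCAM, at 60.6 ± 2.79 and 84.6 ± 1.89 CPM, and the part of this in the mitochondrial results was not tested.

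The mitochondrial share of all counts was lower after FT671. Values of replicates are given in the order 1, 2 and 3 throughout. In the DMSO replicates the 37 genes held 2.82%, 2.75% and 2.59% of all counts. In the FT671 replicates they held 1.47%, 1.501% and 1.76%. The Wilson 95% interval was widest for DMSO replicate 3, at 2.58% to 2.61%, so counting error is small beside the spread between cultures. Every FT671 library lay below every DMSO library, and the means were 2.72% ± 0.116 and 1.58% ± 0.158 (SD, n = 3 each), a difference of −1.14 percentage points (exact permutation test, two-sided, p = 0.1, below which no comparison of 3 with 3 libraries can go). With any 1 library left out, the difference lay between −1.23 and −1.09 points. Counts from whole cells cannot tell fewer mitochondrial genomes per cell from less RNA per genome.

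Almost all mitochondrial counts came from the mRNAs, which held 99.4% to 99.7% of them in each library. The summed mRNA level was 27623, 27455 and 25330 CPM in the DMSO replicates and 14803, 15047 and 17837 CPM in the FT671 replicates. The groups did not overlap, and the log2 difference of the sums was −0.76 (exact permutation test, p = 0.1, adjusted over the 3 RNA classes p = 0.3). The summed rRNA level was 9.79 ± 3.95 CPM in DMSO and 10.9 ± 3.85 CPM after FT671, a log2 difference of 0.15 (exact permutation test, p = 1). The summed tRNA level was 76.3 ± 8.23 CPM and 68.0 ± 19.9 CPM, a log2 difference of −0.21 (exact permutation test, p = 0.7). For both of these classes the libraries of the groups overlapped. MT-TL1 held 74.1% to 85.1% of the tRNA counts in each library, and without it the tRNA sum was 15.8, 17.9 and 18.98 CPM in DMSO and 10.6, 13.8 and 12.7 CPM after FT671. Without that gene the groups did not overlap and the log2 difference was −0.51 (exact permutation test, p = 0.1).

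All 13 mRNAs passed the filter on low counts, and 12 of them fell and 1 rose at an adjusted p-value of 0.05 (edgeR's quasi-likelihood test, adjusted over the 13895 genes tested). Among all genes tested 26.5% were lower and 23.6% were higher at this threshold. The 12 include MT-ND6, whose counts cannot be told apart from RNA of the other strand, as described below. At an adjusted p of 1e-05 (edgeR) 6 of the 13 fell and 0 rose, against 4.13% lower and 1.79% higher among all genes. By edgeR 13 of the 13 had an unadjusted p under 0.05, and DESeq2's Wald test called 10 lower and 1 higher at 1e-05. Without DMSO replicate 3, edgeR called 11 lower and 1 higher at 1e-05. The median log2 fold change of the mRNAs was −0.75, and that of all genes tested was −0.010. For each of the 13, all FT671 libraries lay on one side of all DMSO libraries, which held for 30.3% of all genes in the lower and 26.8% in the higher direction. MT-CYB, MT-CO3, MT-ND2 and MT-ND3 fell by a log2 fold change of more than 1 at an adjusted p under 0.05 (edgeR), as did 6.53% of all genes.

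**Figure D1:**
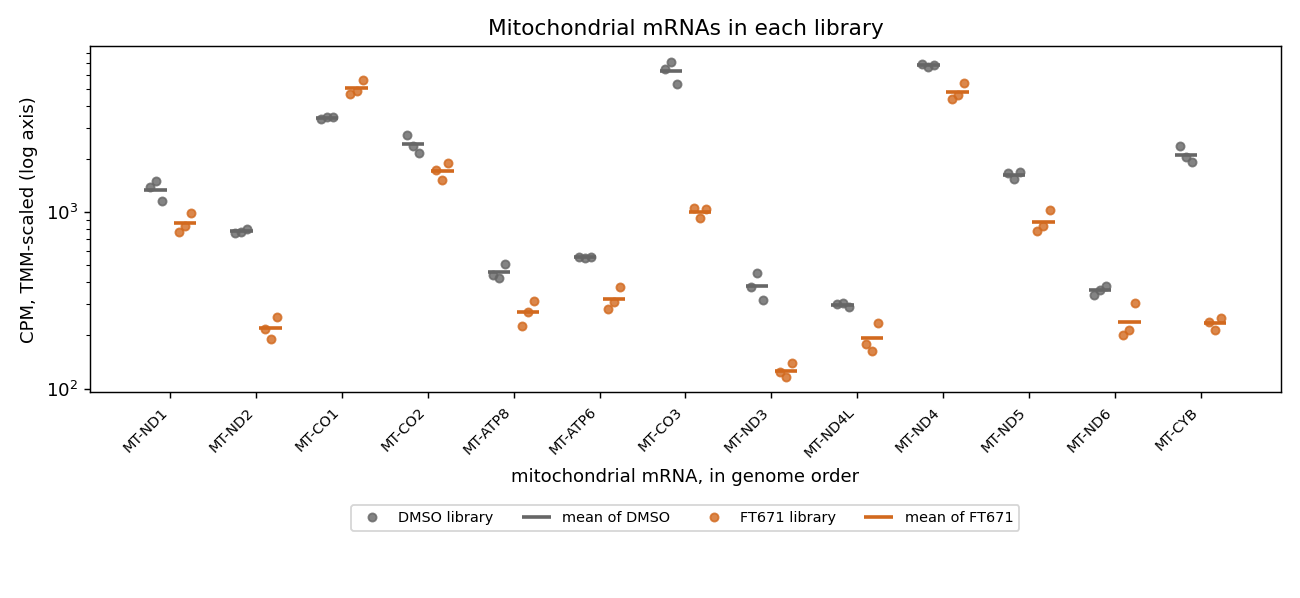
Level of the 13 mitochondrial mRNAs in each library, in genome order, as TMM-scaled CPM on a log axis. Points are the 3 DMSO libraries (grey) and the 3 FT671 libraries (orange) and lines are group means. MT-CO1 is the mRNA with all FT671 points above all DMSO points, and the gap is widest for MT-CYB, from a mean of 2104 ± 232 to 235 ± 18.9 CPM.

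Complex III has a single mitochondrially encoded subunit, cytochrome b. Its gene MT-CYB (ENSG00000198727.2, chrM:14747-15887, 1141 bases without introns) had the smallest p-value of all genes tested. Its level was 2361, 2040.2 and 1910.1 CPM in the DMSO replicates and 238, 215 and 252 CPM in the FT671 replicates. The lowest DMSO library was far above the highest FT671 library. The mean fell from 2104 ± 232 to 235 ± 18.9 CPM (SD, n = 3 each), with a log2 fold change of −3.16 (standard error 0.0950, edgeR, adjusted p = 1.52e-10). Of all genes tested, 9 (0.0648%) had a log2 fold change below −3, and MT-CYB ranked 8 from the lowest. The fall of this gene was known from an earlier analysis of these data, so it is a description here and no independent support.

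The 3 mitochondrially encoded subunits of complex IV, the cytochrome c oxidase, moved apart. MT-CO3 (ENSG00000198938.2, chrM:9207-9990) encodes subunit III, and its level was 6426, 7101 and 5302 CPM in the DMSO replicates. After FT671 it was 1049.8, 927 and 1035 CPM in replicates 1, 2 and 3, and the groups were far apart. Its log2 fold change was −2.64 (standard error 0.102, edgeR, adjusted p = 1.23e-09), and its rank by mean CPM among all listed genes went from 3 in DMSO to 93 after FT671. MT-CO1 (ENSG00000198804.2, chrM:5904-7445), which encodes the catalytic subunit I, went the other way. Its level was 3368, 3446 and 3453 CPM in the DMSO replicates and 4637, 4821 and 5623 CPM in the FT671 replicates. The DMSO libraries lay close together and every FT671 library was above them, with a log2 fold change of 0.56 (standard error 0.0789, edgeR, adjusted p = 5.84e-05). By rank of mean CPM it went from 9 to 2. MT-CO2 (ENSG00000198712.1, chrM:7586-8269), which encodes the copper-bearing subunit II, was at 2741, 2350.4 and 2161 CPM in DMSO and 1725, 1520.0 and 1889.7 CPM after FT671. Its log2 fold change was nearer to 0, at −0.50 (standard error 0.0963, edgeR, adjusted p = 0.000701).

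All 7 mitochondrially encoded subunits of complex I, the NADH dehydrogenase, fell in their counts, with log2 fold changes from −1.81 to −0.50. They belong to the membrane arm of the complex. MT-ND6, among them, lies on the light strand, and its counts may hold RNA of the other strand, as described below. The largest falls were those of MT-ND2 (ENSG00000198763.3, chrM:4470-5511) and MT-ND3 (ENSG00000198840.2, chrM:10059-10404). MT-ND2 was at 761, 775 and 797 CPM in the DMSO replicates and at 218, 191 and 254 CPM in the FT671 replicates. Its log2 fold change was −1.81 (standard error 0.0922, edgeR, adjusted p = 1.18e-08). MT-ND3 was at 376, 454 and 319 CPM in DMSO and at 123, 117 and 139 CPM after FT671. Its DMSO libraries were more spread, and the log2 fold change was −1.60 (standard error 0.113, edgeR, adjusted p = 1.42e-07).

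The other complex I mRNAs had log2 fold changes nearer to 0. MT-ND5 (chrM:12337-14148) was at 1661, 1531 and 1686 CPM in DMSO and 779, 837 and 1021 CPM after FT671, a log2 fold change of −0.89 (standard error 0.0923). MT-ND1 (chrM:3307-4262) was at 1377, 1491 and 1153 CPM and 766, 835 and 987 CPM, a log2 fold change of −0.64 (standard error 0.103). MT-ND4 (chrM:10760-12137), the most abundant of the 7, was at 6916, 6624 and 6814 CPM and 4378, 4625 and 5408 CPM, a log2 fold change of −0.50 (standard error 0.0816). MT-ND4L (chrM:10470-10766) lies on the same RNA as MT-ND4 and overlaps it, and its log2 fold change was −0.63 (standard error 0.109). MT-ND4L fell from 299 ± 7.64 to 193 ± 38.7 CPM (SD, n = 3 each). Fragments that cover bases of a pair of overlapping genes on the same strand appear to be left out of such counts, since genes lying wholly inside an expressed gene of the same strand had a count in 32 of 376 cases (8.51%), so both values rest on the bases outside the overlap.

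Complex V is the ATP synthase, and its mitochondrially encoded subunits come from MT-ATP6 (chrM:8527-9207) and MT-ATP8 (chrM:8366-8572), which also overlap on a shared RNA. MT-ATP6 was at 558, 547 and 557 CPM in DMSO and 284, 310.0 and 375 CPM after FT671. MT-ATP8 was at 441, 425 and 508 CPM and 227, 272 and 312 CPM. Both fell with no overlap between the groups, by log2 fold changes of −0.77 (standard error 0.0897, edgeR, adjusted p = 9.80e-06) and −0.75 (standard error 0.104, edgeR, adjusted p = 4.55e-05). The last base of MT-ATP6 is the first base of MT-CO3, and the log2 fold changes of these neighbors were −0.77 and −2.64.

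Compared per kilobase of exon, the order of the mRNAs changed. Reads lost to overlaps between genes, or to the nuclear copies described below, may differ from gene to gene. The order is thus one of counts per length, not of RNA amounts. In DMSO MT-CO3 had the highest level, with 8005 ± 1159 CPM per kb, followed by MT-ND4 with 4923 ± 108, MT-CO2 with 3535 ± 433 and MT-CO1 with 2219 ± 30.6 CPM per kb (SD, n = 3). These first neighbors were separate in all libraries, while MT-CO1 and the next, MT-ATP8 with 2214 ± 212, overlapped, as did MT-ATP8 and MT-CYB with 1844 ± 203. After FT671 MT-ND4 with 3486 ± 390.5 and MT-CO1 with 3260.0 ± 340.0 CPM per kb were highest and overlapped. MT-CO2 with 2502 ± 271 came next and was separate from both of its neighbors, and MT-CO3 was at 1281 ± 85.1. At the lower end MT-ND2 with 212 ± 30.3 and MT-CYB with 206 ± 16.5 CPM per kb overlapped, whereas in DMSO MT-ND6 had been lowest with 686 ± 39.0.

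A ratio within a library does not depend on how libraries are scaled. Each mRNA was therefore set against the sum of the other 12. MT-CYB (log2 difference −2.50), MT-CO3 (−2.17), MT-ND2 (−1.09) and MT-ND3 (−0.84) were lower against the others in every FT671 library than in every DMSO library. MT-CO1 (1.66), MT-ND4 (0.35) and MT-CO2 (0.29) were higher in the same sense, and for the other 6 the groups overlapped. Each of these 7 separations had the smallest p an exact permutation test of 3 against 3 allows (p = 0.1, adjusted over the 13 p = 0.186). The ratios are tied to each other, since a larger share of 1 mRNA lowers that of the rest. MT-CO1 held 12.2%, 12.6% and 13.6% of the mRNA counts in the DMSO replicates and 31.3%, 32.04% and 31.5% in the FT671 replicates. MT-CO3 held 23.3%, 25.9% and 20.9% and then 7.09%, 6.16% and 5.80%.

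**Figure D2:**
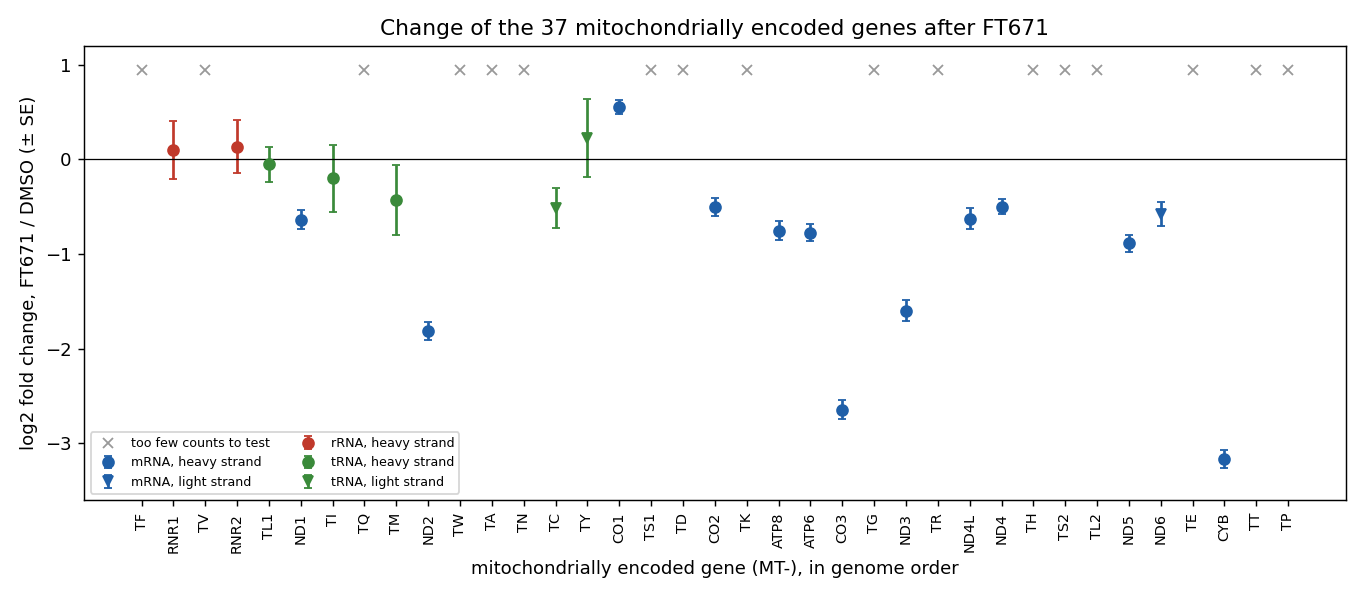
Log2 fold change of FT671 over DMSO for the mitochondrial genes in genome order, with bars of 1 standard error. Circles are heavy-strand and triangles light-strand genes, colors give the RNA class, and crosses at the top mark the 17 tRNAs with too few counts to test. Strong falls stand next to weak ones along the heavy strand, as for MT-ATP6 at −0.77 beside MT-CO3 at −2.64, and the tested rRNAs and tRNAs lie between −0.52 and 0.23.

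Along the heavy strand the fold changes did not follow a steady course. Over the 12 heavy-strand mRNAs, the log2 fold change and the start position had a Spearman's rho of −0.29 and a Pearson's r of −0.44, given as a description, since these genes share precursors and libraries. The 3 FT671 libraries taken alone gave a rho of −0.33, −0.40 and −0.26. Without MT-CYB, the last gene on the strand, the rho was −0.082 and the r −0.12, so the relation rests largely on that gene. In genome order the fold changes were −0.64 for MT-ND1, −1.81 for MT-ND2, 0.56 for MT-CO1 and −0.50 for MT-CO2. They went on with −0.75 for MT-ATP8, −0.77 for MT-ATP6, −2.64 for MT-CO3, −1.60 for MT-ND3, −0.63 for MT-ND4L, −0.50 for MT-ND4, −0.89 for MT-ND5 and −3.16 for MT-CYB. The mRNA with the rise thus stands between MT-ND2 and MT-CO2, which both fell.

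On the light strand MT-ND6 (ENSG00000198695.2, chrM:14149-14673), a complex I subunit, is the only mRNA. Its level was 338, 363 and 379 CPM in the DMSO replicates and 199.9, 213 and 306 CPM in the FT671 replicates. The groups did not overlap, though FT671 replicate 3 came near, and the log2 fold change was −0.58 (standard error 0.124, edgeR, adjusted p = 0.00158). Against the sum of the 12 heavy-strand mRNAs it differed by 0.15 on the log2 scale (exact permutation test, p = 0.4, adjusted over the pair of strand ratios p = 0.7), and the groups overlapped. The 8 light-strand tRNAs against the 14 heavy-strand tRNAs differed by −0.12 (exact permutation test, p = 0.7). The strand setting of the counting is not given in the sources used here. Genes lying wholly within the exons of an expressed gene on the opposite strand had counts in 281 of 309 cases (90.9%), with a median of 1.04 times the counts per length of that gene (247 pairs of at least 200 bases). Counts on MT-ND6 and on light-strand tRNAs therefore cannot be told apart from RNA of the other strand at the same place. Counts on heavy-strand genes may likewise hold light-strand RNA of the same place, and how much was not tested.

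The library kit removes rRNA before sequencing. Both mitochondrial rRNAs were low in all libraries, and their counts measure what was left after this step. MT-RNR1 (12S, chrM:648-1601) had counts of 117, 52 and 15 in the DMSO replicates and of 17, 36 and 80 in the FT671 replicates. MT-RNR2 (16S, chrM:1671-3229) had 88, 44 and 20 and then 12, 38 and 64. The libraries of the groups overlapped for both genes. The log2 fold changes were 0.10 (standard error 0.306) and 0.13 (standard error 0.281), with adjusted p-values of 0.806 and 0.716 (edgeR), and no difference was detectable at this depth. The rRNA sum over the mRNA sum differed by 0.91 on the log2 scale, with overlapping groups (exact permutation test, p = 0.2).

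Of the 22 tRNAs, which span 59 to 75 bases, 5 passed the filter on low counts and none was called at 0.05 in either direction by edgeR or by DESeq2. An unadjusted p under 0.05 was found for 1 of them by edgeR, MT-TC. MT-TL1 (the tRNA for leucine next to MT-RNR2, chrM:3230-3304) had by far the most counts, with 69.8, 52.04 and 54.4 CPM in DMSO and 35.9, 58.1 and 72.95 CPM after FT671. Its groups overlapped and its log2 fold change was −0.051 (standard error 0.185, edgeR, adjusted p = 0.837). MT-TC (cysteine, light strand, chrM:5761-5826) had 6.63, 10.4 and 7.74 CPM in DMSO and 6.64, 5.93 and 5.17 CPM after FT671. The highest FT671 library was just above the lowest DMSO library, and the log2 fold change was −0.52 (standard error 0.212, edgeR, adjusted p = 0.0561). This gene lies near the threshold, with an adjusted p of 0.021 to 0.31 (edgeR or DESeq2) over the alternatives. It was called by edgeR without DMSO replicate 1 (adjusted p = 0.0208) and without DMSO replicate 3 (adjusted p = 0.0282). MT-TY (tyrosine) had counts of 36, 12 and 12 and then 4, 21 and 23, MT-TI (isoleucine) 22, 16 and 12 and then 4, 6 and 21, and MT-TM (methionine) 27, 13 and 7 and then 3, 6 and 15. MT-TI passed the filter with 3 DMSO libraries and 1 FT671 library over its minimum, and MT-TM with 2 and 1. Of the 17 tRNAs not tested the highest count was 25, for MT-TD (aspartate), which had 25, 11 and 17 counts in DMSO and 4, 2 and 8 after FT671. MT-TV, MT-TN, MT-TK and MT-TR had 0 counts in all 6 libraries, which allows up to 3 counts in each.

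The tRNA sum over the mRNA sum was higher in every FT671 library than in every DMSO library, by 0.55 on the log2 scale (exact permutation test, p = 0.1, adjusted over the 2 class ratios p = 0.2). With MT-TL1 left out of the tRNA sum, an alternative chosen after seeing the data, the groups overlapped and the difference was 0.25 (exact permutation test, p = 0.3). Gene counts do not separate a free tRNA from a tRNA still joined to its neighbors in a precursor, and a fragment reaching into a neighboring gene of the same strand appears to be counted for neither.

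How the annotated last codon is encoded was compared after the values had been seen, so it is a description with no test. The 6 mRNAs with an incomplete last codon had log2 fold changes of −3.16 to −0.50 with a median of −1.70. The 7 with a complete last codon lay between −0.89 and 0.56 with a median of −0.63. They include MT-ATP8 and MT-ND4L, which share an RNA with MT-ATP6 and MT-ND4. Their last codons are thus not at the end of those RNAs. MT-ATP6 is also among the 7, though its last base is the first base of MT-CO3. The groups are therefore of annotated reading frames, not of RNA ends. All of the 4 mRNAs that fell by more than 1 on the log2 scale, MT-CYB, MT-CO3, MT-ND2 and MT-ND3, end in a single T of the stop codon. MT-ND4, which also ends in a single T, fell by only 0.50 on the log2 scale, and MT-ND1, which ends in TA, fell by 0.64. For 6 of the 6 the next gene downstream on the same strand is a tRNA that starts at the following base. This holds for none of the 7 with a complete last codon. The last codon and the downstream tRNA thus give the same split and cannot be told apart here. MT-CO1 ends in AGA and MT-ND6 in AGG, which are read as stops in human mitochondria.

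What precedes an mRNA showed less of a split. Of the 12 heavy-strand mRNAs, 7 start within 2 bases of a tRNA on the same strand, and their log2 fold changes ran from −1.81 to −0.50 with a median of −0.75. The 5 without such a tRNA were MT-CO1, MT-ATP6, MT-CO3, MT-ND4 and MT-CYB, and theirs ran from −3.16 to 0.56 with a median of −0.77, so both extremes are among them. Their starts are shown for the mRNA that fell most and the one that rose, 24 bases before and 24 from the first base of the coding part, with the first codon in capitals (hg38, + strand, 5′ to 3′).
MT-CYB, chrM:14723-14770: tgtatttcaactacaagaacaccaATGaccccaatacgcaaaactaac
MT-CO1, chrM:5880-5927: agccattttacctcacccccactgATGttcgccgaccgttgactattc

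Part of the mitochondrial genome has near-identical copies in the nuclear genome, and a read that matches both places equally well is not counted for either by STAR's default. The longest such copy in hg38 lies at chr1:629081-634924 and matches chrM:3911-9755 with 98.529% identity over 5846 aligned bases. It covers all of MT-ND2, MT-CO1, MT-CO2, MT-ATP8 and MT-ATP6, 70.0% of MT-CO3 and 36.8% of MT-ND1. MT-ND3, MT-ND4L, MT-ND4, MT-ND5, MT-ND6 and MT-CYB have no match of at least 100 bases and 98% identity in the nuclear genome. How many reads of the covered genes were lost to these copies was not tested. MT-CYB and MT-ND3, with large falls, and MT-ND4, with a small one, are among the genes without such a copy, though MT-CYB and MT-ND4 have less similar ones. The values of the nuclear copies moved with their mitochondrial counterparts. MTND2P28 went from 238 ± 19.9 to 63.7 ± 6.83 CPM, a log2 fold change of −1.89 against −1.81 for MT-ND2, and MTATP6P1 from 163 ± 31.05 to 93.5 ± 11.6 CPM, a log2 fold change of −0.80 against −0.77 for MT-ATP6. MTCYBP18 changed by −3.12, MTCO3P12 by −2.33 and MTND4P12 by −0.34, all lower. MTCO1P12, a copy of the mRNA that rose, was higher, by 0.59 on the log2 scale. MTCO1P40, with a log2 fold change of 0.29, and MTND4P35, with −0.64, did not pass an adjusted p of 0.05 (edgeR). Reads of such copies and of the mitochondrial genes cannot be told apart in these counts, so the copies are no separate evidence.

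The nuclear genes whose products make or handle mitochondrial RNA were described by lists. Of 15 genes for transcription and upkeep of the genome 5 fell and 3 rose at 0.05, with a median log2 fold change of 0.16, and among all genes 26.5% fell and 23.6% rose. POLRMT, the mitochondrial RNA polymerase, fell most, from 66.9, 63.2 and 64.7 CPM in the DMSO replicates to 32.1, 25.4 and 25.3 CPM after FT671, with no overlap. Its log2 fold change was −1.25 (edgeR, adjusted p = 6.54e-07). TFB2M, which opens the promoters for the polymerase, changed by −0.63 and the helicase gene TWNK by −0.55. TFAM, which packs the genome and starts transcription, was at 69.3 ± 9.89 CPM in DMSO and 80.8 ± 6.86 CPM after FT671 and was not called (edgeR, adjusted p = 0.0757). TOP1MT, the mitochondrial topoisomerase, rose by 0.59, SSBP1, which binds single-stranded DNA, by 0.32, and MTERF2, of the termination factor family, by 0.75 on the log2 scale.

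Of 14 genes for cutting and modifying the RNAs 13 were tested, and 1 fell and 8 rose, with a median of 0.42, against 26.5% lower and 23.6% higher among all genes. ELAC2, which cuts tRNAs at their 3′ end, went from 75.5 ± 2.03 to 114 ± 9.35 CPM, a log2 fold change of 0.59. TRNT1, which adds CCA to tRNAs, changed by 0.66, and TRMT61B, a methyltransferase for mitochondrial RNA, by −1.06. PTCD2, a pentatricopeptide repeat protein linked in mice to the processing of the cytochrome b transcript, rose from 19.8 ± 2.73 to 34.4 ± 4.72 CPM, a log2 fold change of 0.85. Of 14 genes for stability and decay 0 fell and 7 rose by edgeR, with a median of 0.35, beside the same shares of all genes. At an unadjusted p under 0.05 0 fell and 8 rose, and DESeq2 called 0 and 7. LRPPRC and SLIRP form a complex that stabilizes mitochondrial mRNAs. SLIRP rose from 55.9 ± 4.51 to 113 ± 18.5 CPM, a log2 fold change of 1.03, whereas LRPPRC, at 391 ± 55.9 and 444 ± 19.2 CPM, was not called (edgeR, adjusted p = 0.101). PNPT1, a subunit of the RNA-degrading complex, changed by 0.75 and PTCD3, a protein of the mitochondrial ribosome, by 0.64. TFB1M stands on both the list for transcription and the list for cutting. MTERF2, TWNK, TRNT1, PTCD2 and SLIRP, and the ATP synthase gene ATP5MK, overlap a gene on the opposite strand, so their counts are uncertain in the way given for MT-ND6.

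Most nuclear-encoded partners of the mitochondrial subunits rose, while 12 of the 13 mitochondrial mRNAs fell, MT-ND6 with the limit on strand given above. Of 79 nuclear subunits of complexes I, III, IV and V, 74 were tested, and 0 fell and 56 rose by edgeR, with a median log2 fold change of 0.45. Among all genes 26.5% fell and 23.6% rose, with a median of −0.010. At an unadjusted p under 0.05 0 fell and 60 rose, and DESeq2 called 0 lower and 57 higher. The rise of nuclear respiratory genes was known from an earlier analysis and is no independent support. In complex I 23 of 36 rose, among them NDUFS5, from 193 ± 12.01 to 337 ± 24.99 CPM. In complex III, whose mitochondrial subunit had the largest fall, 8 of 9 rose, among them UQCRB, from 138 ± 28.3 to 251 ± 9.27 CPM. In complex IV 9 of 11 rose, among them COX6A1, from 54.1 ± 6.42 to 90.5 ± 5.11 CPM, and NDUFA4, from 125 ± 11.4 to 215 ± 17.2 CPM. In complex V 16 of 18 rose, among them ATP5MK, from 43.2 ± 5.995 to 74.8 ± 9.18 CPM. MT-CO1 was thus the only mitochondrially encoded mRNA that moved in the direction of the nuclear subunits, under every scaling tried.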

How the data were processed

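RNA-seq counts of 3 DMSO and 3 FT671 libraries of K562 cells were used, and the ChIP-seq samples were not used here. According to the labels and the study's methods, total RNA was depleted of rRNA (KAPA RNA HyperPrep with RiboErase), sequenced paired-end, aligned by STAR (two-pass mode, hg38) and counted in the same step. The authors deposited the raw read counts per gene without normalization. The STAR version, annotation release and strand setting are not given in the sources used here.

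Symbols, positions and exon lengths came from GENCODE release 44, which matched 60295 of 60609 genes. Counts were filtered with filterByExpr (minimum count 10), scaled by TMM and tested with edgeR 4.0.16 (quasi-likelihood, no covariates, R 4.3.3), with Benjamini-Hochberg adjustment over 13895 genes. Calls were counted at an adjusted p of 0.05 and at 1e-05, the threshold of the study's methods. A standard error is the size of the log2 fold change divided by the square root of F, and CPM are TMM-scaled. Shares, sums and ratios were compared by two-sided exact permutation tests over the 20 splits of 3 against 3 (scipy 1.17.1). Nuclear copies were found with BLAST+ 2.17.0 (at least 100 bases and 98% identity). No library was a copy of another (chi-square of 2.07 to 8.73 per degree of freedom between replicates). The highest values, 7.55 and 8.73, were those of DMSO replicate 3 against DMSO replicates 1 and 2. The fit was tested on simulated data.

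1 marker of another cell type is not reported here. The members, lists and tests were chosen with earlier results of these data known. All 37 genes are accounted for. Nuclear copies were named by symbol with at least 1 CPM (at most 8). From each nuclear list the 3 largest rises and 3 largest falls past 0.05 with at least 5 CPM could be named, plus POLRMT, TFAM, LRPPRC, SLIRP and PTCD2. Alternatives were DESeq2 1.42.0 (size factors or Wald test), library totals, TMM on nuclear genes, other filters, a replicate block, thinning, an added count, sums without the leading gene (for the tRNA to mRNA ratio added after seeing the data) and leaving out each library.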

Additional observations from a re-analysis of the deposited data

How the results depend on the processing

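At 0.05 the number of mitochondrial genes called lower was 12 to 15 and the number called higher 1 under all alternatives run, and each of the 13 mRNAs kept its direction and its call. MT-CYB ranged from −3.23 to −3.07, MT-CO3 from −2.76 to −2.54 and MT-CO1 from 0.47 to 0.61. At 1e-05 the number lower went from 6 to 12 and the number higher from 0 to 1 without the filter on low counts, and to 10 and 1 by DESeq2's Wald test. With each library left out it was 4 to 11 lower and 0 to 1 higher, the highest without DMSO replicate 3. With each library left out, the rRNA sum ranged from −0.11 to 0.49, the tRNA sum from −0.39 to 0.047 and the light-strand against heavy-strand tRNAs from −0.34 to 0.15 on the log2 scale, so their signs were not stable. Without the gene with the most counts in its class the tRNA sum was −0.51 and the rRNA sum 0.068, and the tRNA sum over the mRNA sum fell from 0.55 to 0.25 without MT-TL1. The same held for MT-RNR1 (−0.11 to 0.60), MT-RNR2 (−0.048 to 0.43), MT-TL1 (−0.32 to 0.16), MT-TY (−0.20 to 0.58) and the ratios of MT-ATP8 and MT-ATP6 to the other 12 mRNAs (−0.080 to 0.11 and −0.058 to 0.014). MT-RNR1 was −0.073 with counts thinned to the smallest total. The cause was not tested. The rho of fold change and genome order was −0.082 without MT-CYB. MT-TC was called lower with library totals alone (−0.55) and without the filter (−0.55). Without the filter MT-TD and MT-TG were called lower too. MT-TD was also called lower without FT671 replicate 1 (log2 fold change −1.55, edgeR, adjusted p = 0.0445). With each value counted once per alternative, 110 that answer a comparison and 345 of single genes kept their direction and their side of the threshold. For numbers of genes this means that they stayed within 1.5 times the reported number. Of the others that answer a comparison, 8 moved out of these limits and 6 reversed direction. Of the others of single genes, 13 reversed direction and 4 gained a call.

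The labels give replicate numbers and do not state a pairing of DMSO with FT671 cultures, and these values cannot tell whether there was one. With a replicate block 3761 of all genes tested were lower and 3374 higher at 0.05 (edgeR). Without the block 3687 were lower and 3277 higher. Across genes, which are not independent, each library's deviations from its group mean correlated with those of the library of the same number in the other group at r = 0.115, −0.0605 and 0.14, and not every library correlated best with its own number. With the replicate block 7 mitochondrial genes were lower at 1e-05 and 12 at 0.05, the rho with genome order was −0.39, and no mRNA lost its call. The rRNAs together had 29 to 205 counts in a library, and 17 of the 22 tRNAs had too few counts to be tested.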
